A study of Sus scrofa with 6 samples.

Results

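The genes described here encode the phagocyte NADPH oxidase and the enzymes of the vessel wall that are set against it, namely NOX4, the superoxide dismutases and catalase. Members were taken as the entries of the deposited gene table whose symbol equals 1 of 9 listed names. Of these, 8 were found among the 22861 genes of the table (CYBB, NCF1, NCF4, NOX4, SOD1, SOD2, SOD3 and CAT), and each passed the filter on low counts that left 11673 genes for testing. CYBA, the membrane partner of CYBB, was not analysed here. RNA came from abdominal aorta of Wisconsin Miniature Swine (WMS). The lesion group (3 pools, replicates 1 to 3) was labelled WMS FH, a line with familial hypercholesterolaemia, and its tissue carried atherosclerotic lesions. The lesion-free group (3 pools, replicates 4 to 6) was labelled WMS normal. Each group combined 11 animals into 3 pools, and the labels used here do not give which animals went into which pool, nor their age, sex, diet or treatment. Swine line and lesion status cannot be told apart, because they went together in every pool, and p-values measure the spread between pools.

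NADPH oxidases move electrons from NADPH across a membrane to oxygen. In phagocytes the catalytic chain CYBB (NOX2) is held in the membrane by CYBA and stays silent until cytosolic subunits such as NCF1 and NCF4 and the GTPase RAC2 dock onto it, and the burst of superoxide that follows serves to kill microbes. NOX4 is a relative found in smooth muscle and endothelium that is active without those cytosolic subunits and releases mainly hydrogen peroxide. Superoxide dismutases turn superoxide into hydrogen peroxide in the cytosol (SOD1), in mitochondria (SOD2) and in the extracellular matrix of the artery (SOD3), and catalase (CAT) breaks hydrogen peroxide down to water and oxygen.

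Total counts were 4650176 to 11442433 in lesion pools and 8492673 to 10826175 in lesion-free pools, and the lowest total was that of lesion replicate 1. Levels are given as counts scaled to library size (CPM, the usual unit of bulk RNA sequencing), and 3 counts, taken as the limit that a count of 0 allows, equal 0.268 to 0.576 CPM in lesion pools and 0.305 to 0.359 CPM in lesion-free pools. Such limits cover counting error only. Smooth muscle markers were abundant in every pool. ACTA2, smooth muscle actin, stood at 14283 ± 1454 CPM in lesion pools and 24076 ± 1563 CPM in lesion-free ones (mean ± SD, n = 3 each). A gene is called changed where limma's p, adjusted over the 11673 genes by Benjamini and Hochberg, is under 0.05. By this rule 0.968% of tested genes were higher in lesion pools, 0.0771% were lower, and 1.05% were called in either direction. An unadjusted p under 0.05 was reached by 10.6% of tested genes (1241 of 11673), the share against which such counts are read for the gene lists. Of the 8 members 1 was called, CYBB, which was higher.

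CYBB, the catalytic chain, rose strongly in lesion aorta. It stood at 94.5, 72.6 and 102 CPM in lesion replicates 1, 2 and 3, against 4.96, 5.39 and 3.86 CPM in lesion-free replicates 4, 5 and 6. The groups were far apart, and within each group the pools differed little from each other. Its mean was 89.8 ± 15.4 CPM in lesion pools and 4.74 ± 0.789 CPM in lesion-free ones (mean ± SD, n = 3 each), an 18.9-fold difference (95% confidence interval 8.78 to 40.7). The log2 fold was 4.24 (SE 0.52, limma adjusted p = 0.000522), and CYBB ranked 17 by p among all genes tested. Leaving out any 1 pool gave log2 folds from 4.09 to 4.40, each called. In bulk tissue, more cells of a type and more RNA per cell cannot be told apart.

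NCF4, the cytosolic subunit that binds a membrane phosphoinositide, differed less. It stood at 13.8, 17.9 and 18.8 CPM in lesion pools, against 10.2, 5.75 and 7.62 CPM in lesion-free pools. The groups did not overlap, as was the case for 19.4% of all genes tested. The means were 16.9 ± 2.65 CPM in lesion pools and 7.87 ± 2.26 CPM in lesion-free ones (mean ± SD, n = 3 each). The log2 fold of 1.15 (SE 0.45, limma adjusted p = 0.350) did not pass the threshold, and its 95% confidence interval ran from 0.20 to 2.10.

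NCF1, the subunit whose phosphorylation starts assembly of the complex, had few counts and spread widely. Its counts were 0, 31 and 198 in lesion replicates 1, 2 and 3, against 26, 15 and 7 in lesion-free replicates 4, 5 and 6. That is 0, 2.77 and 18.1 CPM in lesion pools and 2.80, 1.80 and 0.711 CPM in lesion-free pools. Lesion replicate 3 was highest and lesion replicate 1 lowest of the 6 pools, so the groups overlapped. In lesion replicate 1 a count of 0 allows up to 0.576 CPM. The log2 fold was 0.89 with an SE of 1.58 (limma adjusted p = 0.876), turned to -0.997 without lesion replicate 3 and was 2.19 without lesion replicate 1. A difference in NCF1 was therefore not detectable in these pools.

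The isoform table adds a limit to NCF1. It gives the name NCF1-201 to the NCF1 isoform and also to the single isoform of another gene entry (ENSSSCG00000028635) that has no symbol in the gene table. That entry had 56.3, 43.5 and 45.0 CPM in lesion pools, against 50.9, 52.4 and 58.2 CPM in lesion-free pools. It was higher than the NCF1 entry in each of the 6 pools and was not called (log2 fold -0.19, limma adjusted p = 0.848). Summed, the 2 entries stood at 55.2 ± 8.42 CPM in lesion pools and 55.6 ± 2.90 CPM in lesion-free ones (mean ± SD, n = 3 each), with a log2 fold of -0.024 (limma adjusted p = 0.986). Near-identical copies of NCF1 exist in the human genome. Whether reads were shared between the 2 pig entries was not tested, and NCF1 levels are uncertain for that reason.

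**Figure D1:**
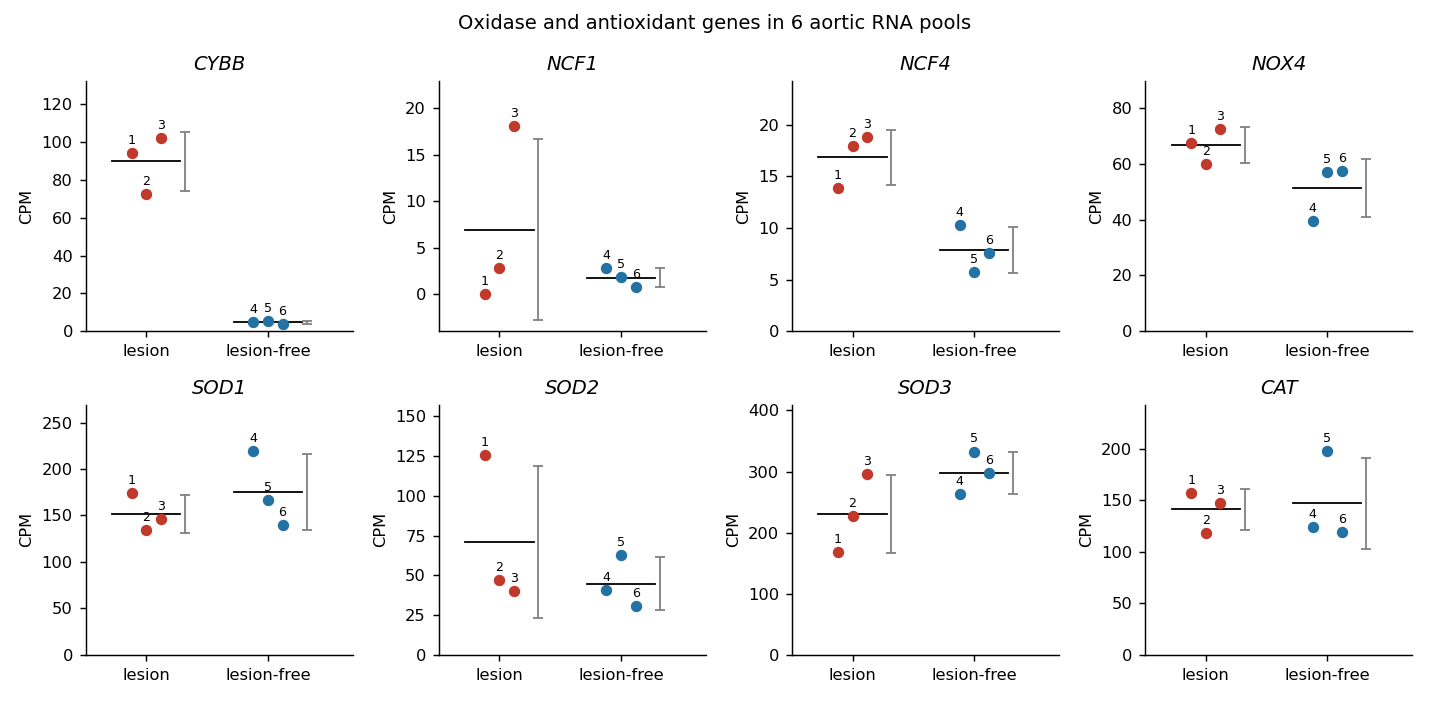
Level of the 8 member genes (CPM, linear axis) in 3 lesion pools (red) and 3 lesion-free pools (blue). Each point is 1 pool labelled with its replicate number, black lines are group means and grey bars 1 SD; CYBB lies at 72.6 to 102 CPM in lesion pools and at 3.86 to 5.39 CPM in lesion-free pools, whereas the groups of NCF1, SOD1, SOD2, SOD3 and CAT overlap.

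None of the genes for the vessel wall oxidase, the superoxide dismutases and catalase was called by limma, and 0 of these 5 had an unadjusted p under 0.05. Over all genes tested the shares were 1.05% and 10.6%, so counts of 0 among 5 genes do not set these genes apart. The 5 log2 folds ran from -0.40 to 0.46 with a median size, regardless of sign, of 0.39, beside a median size of 0.44 over all genes tested. NOX4 stood at 67.6, 60.0 and 72.6 CPM in lesion pools, against 39.5, 57.1 and 57.5 CPM in lesion-free pools. Each lesion pool lay above each lesion-free pool, as in 10.4% of all genes tested, but replicates 2, 5 and 6 were within a few CPM of each other. The log2 fold was 0.39 (SE 0.28, limma adjusted p = 0.648), with a 95% confidence interval of -0.21 to 1.00, so a rise of up to 2.00-fold lay within it.

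SOD1, the cytosolic copper and zinc enzyme, stood at 175, 134 and 146 CPM in lesion pools, against 219.9, 166 and 140.2 CPM in lesion-free pools. The groups overlapped, and the highest value was that of lesion-free replicate 4 (log2 fold -0.20, SE 0.27, limma adjusted p = 0.831). SOD3, the enzyme bound to the arterial matrix, stood at 168, 228 and 295 CPM in lesion pools, against 263, 333 and 298 CPM in lesion-free pools. Lesion replicates 1 and 2 were below the lesion-free range and lesion replicate 3 within it (log2 fold -0.40, SE 0.28, limma adjusted p = 0.632). CAT stood at 157, 118 and 148 CPM in lesion pools, against 124, 197 and 119 CPM in lesion-free pools. The groups overlapped, the highest value was that of lesion-free replicate 5, and the log2 fold was -0.03 (95% confidence interval -0.63 to 0.56, limma adjusted p = 0.982).

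SOD2, the mitochondrial manganese enzyme that inflammatory signals induce in many cell types, was set apart by 1 pool. It stood at 126, 47.2 and 40.1 CPM in lesion pools, against 40.8, 63.0 and 30.6 CPM in lesion-free pools. Lesion replicate 1 was the highest of the 6 pools, and the other lesion pools lay within the lesion-free range. The log2 fold of 0.46 (SE 0.41, limma adjusted p = 0.726) became 0.04 without lesion replicate 1.

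**Figure D2:**
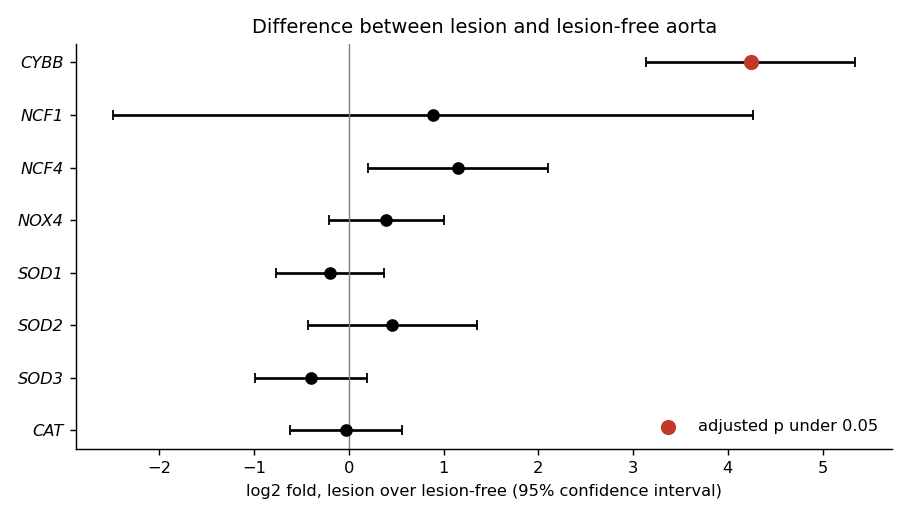
Log2 fold of lesion over lesion-free aorta (x axis) for the 8 member genes, with 95% confidence intervals from limma. CYBB, in red, has an adjusted p under 0.05 at a log2 fold of 4.24; the interval of NCF4 lies above 0 without passing the adjusted threshold, and the intervals of the other members include 0.

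The difference in CYBB was set directly against that of NOX4 by their ratio within each library, which does not depend on how libraries are scaled. The log2 ratio of CYBB to NOX4 counts was 0.48, 0.28 and 0.49 in lesion pools, against -2.98, -3.39 and -3.88 in lesion-free pools. The ratio thus differed by 3.83 on the log2 scale, with no overlap between groups (exact permutation test, two-sided, p = 0.1, the smallest that 3 against 3 pools allow; 0.2 adjusted over 6 ratios). In the ratio of NCF4 to CYBB counts CYBB is the divisor, and this ratio differed by -3.11 on the log2 scale. The log2 ratio was -2.76, -2.02 and -2.44 in lesion pools and 1.04, 0.09 and 0.97 in lesion-free pools (exact permutation p = 0.1, adjusted p = 0.2). It was lower in each lesion pool than in each lesion-free pool, although a design of this size cannot take the p under 0.05.

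Ratios among the antioxidant genes overlapped between the groups. The log2 ratio of SOD2 to SOD1 counts averaged -1.28 ± 0.72 in lesion pools and -2.01 ± 0.54 in lesion-free pools (SD, n = 3 each; exact permutation p = 0.3). Leaving out lesion replicate 1 took the difference of 0.73 to 0.32, and leaving out lesion-free replicate 5 took it to 1.03. That of SOD3 to SOD1 averaged 0.57 ± 0.56 in lesion pools and 0.78 ± 0.45 in lesion-free pools (SD, n = 3 each; exact permutation p = 0.6). That of CAT to SOD1 averaged -0.11 ± 0.11 in lesion pools and -0.27 ± 0.54 in lesion-free pools (SD, n = 3 each; exact permutation p = 0.7). The ratio of NCF1 to CYBB counts rests on the uncertain NCF1 counts and was lower in lesion pools, by -4.14 (exact permutation p = 0.1). This difference was -2.02 without lesion replicate 1, which held no NCF1 count, and -5.74 without lesion replicate 3.

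Macrophage markers differed between the groups beside CYBB. Of 13 tested markers 11 were called higher by limma, beside 0.968% of all genes tested. The median log2 fold of the 13 was 3.02. The summed level of the 15 markers matched was 1681 to 2965 CPM in lesion pools and 235 to 439 CPM in lesion-free pools. The median marker exceeded its lesion-free mean by 3.34, 2.61 and 3.40 on the log2 scale in lesion replicates 1, 2 and 3. CYBB was higher by 4.32, 3.94 and 4.43 in the same pools, so both were lowest in replicate 2. Their part in the CYBB result was not tested. CD68, a lysosomal glycoprotein of macrophages, stood at 223 ± 129.8 CPM in lesion pools and 13.0 ± 4.38 CPM in lesion-free ones (mean ± SD, n = 3 each). MRC1, the mannose receptor, had a log2 fold of -0.91 and was not called (limma adjusted p = 0.720). CD14 was not called either (log2 fold 0.59, limma adjusted p = 0.584). CD163 and MARCO had few counts in both groups and did not reach the filter on low counts.

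Neutrophils, the other phagocyte rich in this oxidase, left few counts. Of 13 neutrophil markers listed 9 were matched, and the others were not analysed. Among the 9, MPO, AZU1, MMP8 and CAMP were at 0 in each of the 6 pools and none reached the filter on low counts. The summed level of the 9 was 0 to 10.9 CPM in lesion pools, where replicate 3 was highest, and 0 in lesion-free pools. Most of that highest sum was S100A12, with 98 counts (8.94 CPM) in lesion replicate 3 and 0 in every other pool. B and T cell markers summed to 10.8 to 18.2 CPM in lesion pools and 1.08 to 13.8 CPM in lesion-free pools, and MS4A1 was at 0 in each pool. The 4 of them that were tested had positive log2 folds, with a median of 2.04, and 0 were called by limma. NOX4 and the superoxide dismutases stood beside smooth muscle markers that summed to 35153 to 48458 CPM in lesion pools and 74586 to 83039 CPM in lesion-free pools. Of 8 such markers 2 were called lower by limma (CNN1 and DES), beside 0.0771% of all genes tested. The median log2 fold of the 8 was -0.85. Endothelial markers had a median log2 fold of 0.57 over 9 genes, with summed levels of 599 to 843 CPM in lesion pools and 657 to 687 CPM in lesion-free pools. The median was 0.03 over 10 fibroblast markers, which summed to 7962 to 8939 CPM in lesion pools and 6447 to 7697 CPM in lesion-free pools. Of the endothelial and fibroblast markers 0 were called by limma. An unadjusted p under 0.05 was found for 5 of 8 smooth muscle, 3 of 9 endothelial and 4 of 10 fibroblast markers, beside 10.6% of all genes tested. The part of these cell types in the NOX4, SOD and CAT values was not tested.

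**Figure D3:**
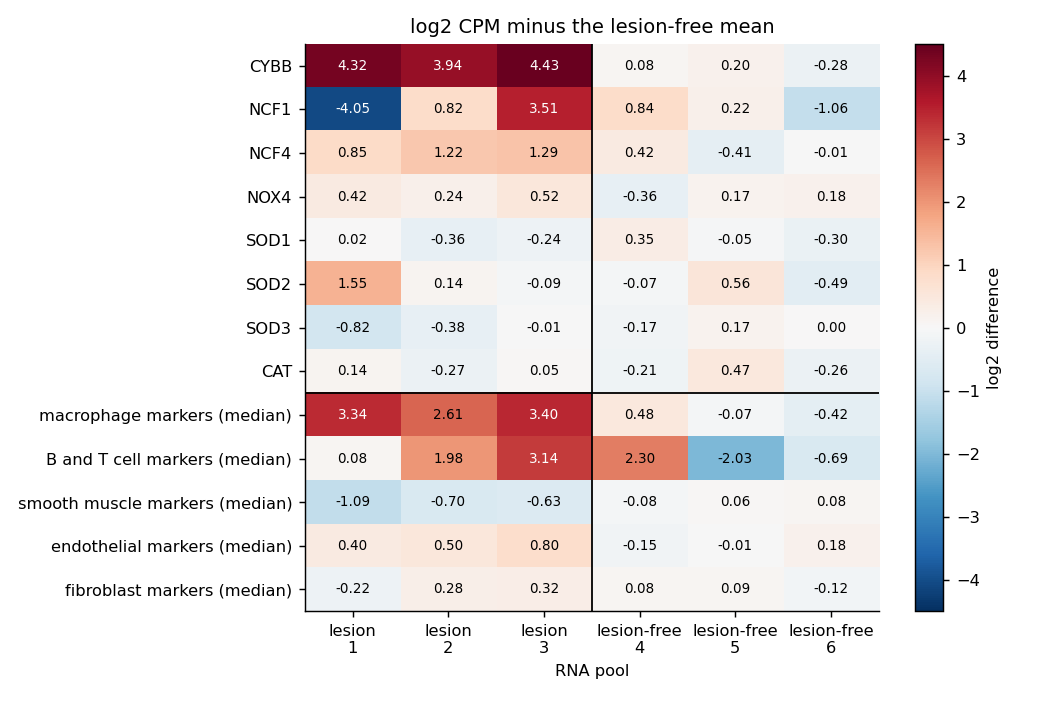
Log2 CPM of each pool minus the mean of the lesion-free pools, with red above and blue below that mean. Rows above the line are the member genes and rows below are medians of marker lists; the 3 lesion pools are on the left. CYBB (3.94 to 4.43) and the macrophage marker median (2.61 to 3.40) are high in the 3 lesion pools, SOD2 is high in lesion replicate 1 (1.55), and the smooth muscle median is below 0 in the 3 lesion pools.

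Other genes that assemble or regulate the phagocyte oxidase had mostly positive log2 folds, and 1 passed the test. Of 14 tested genes on this list 1 rose, 0 fell and 13 were not called by limma, and 7 had an unadjusted p under 0.05, as did 10.6% of all genes tested. The list had 13 positive log2 folds and a median of 1.71, beside a median of -0.00218 over all genes tested. HVCN1, the proton channel that balances the charge the oxidase moves, stood at 49.8, 33.3 and 42.4 CPM in lesion pools, against 9.71, 4.07 and 6.30 CPM in lesion-free pools. The groups did not overlap, and the log2 fold was 2.65 (SE 0.47, limma adjusted p = 0.0105). HVCN1 was called under 13 of 14 alternatives (adjusted p from 0.00204), and not without lesion-free replicate 6 (adjusted p = 0.0693).

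RAC2, the leukocyte GTPase of the complex, was chosen after its values were seen. It averaged 12.4 ± 1.60 CPM in lesion pools and 3.98 ± 3.05 CPM in lesion-free ones (mean ± SD, n = 3 each; log2 fold 2.06, limma adjusted p = 0.365).

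The largest uncalled difference on that list was in VAV1, the exchange factor that loads RAC GTPases in leukocytes. VAV1 stood at 60.5, 37.5 and 48.9 CPM in lesion pools, against 9.38, 0 and 4.06 CPM in lesion-free pools. Because lesion-free replicate 5 held no VAV1 count, the fitted log2 fold of 4.99 (limma adjusted p = 0.0968) depends on the count added before the log. Without that pool the log2 fold was 2.94 and VAV1 was called (limma adjusted p = 0.0274), as it was with sample quality weights (adjusted p = 0.0333). Its adjusted p reached 0.347 over the alternatives. CYBC1, the chaperone that CYBB needs for stable expression, had the lowest log2 fold on the list, -0.58 (limma adjusted p = 0.586), with 26.0 ± 10.2 CPM in lesion pools and 39.8 ± 5.60 CPM in lesion-free ones (mean ± SD, n = 3 each). Its lesion values were 14.6, 29.3 and 34.2 CPM in replicates 1, 2 and 3.

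Other NADPH oxidases had few or no counts. Of 11 genes matched for the remaining family members and their partners, 8 did not reach the filter on low counts, among them NOX1, NOX5, DUOX1 and DUOX2. NOX5 and DUOXA2 were at 0 in each of the 6 pools. DUOX1, a dual oxidase chosen after its values were seen, had no count in the lesion pools, against 16, 13 and 4 counts in lesion-free pools, and was not tested. Of the 3 tested partner genes 0 were called by limma, and 1 had an unadjusted p under 0.05. POLDIP2, a protein that binds the NOX4 complex, had a log2 fold of -0.73 (limma adjusted p = 0.464). It stood at 47.5, 118 and 121 CPM in lesion pools, against 179, 144 and 135 CPM in lesion-free pools, so lesion replicate 1 was far the lowest. The adaptor SH3PXD2A had a log2 fold of 0.16 (limma adjusted p = 0.942).

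Enzymes that remove peroxide, and genes of the NFE2L2 response to oxidants, had median log2 folds near that of all genes. Of 20 listed peroxide-removing enzymes 17 were matched and 16 tested, and GPX1, GPX7 and GLRX2 were not analysed. Among the 16 tested, 0 were called by limma, 1 had an unadjusted p under 0.05, and the median log2 fold was 0.12. GLRX, glutaredoxin, had the highest value, at 27.7, 14.2 and 26.6 CPM in lesion pools against 6.47, 6.59 and 3.15 CPM in lesion-free pools (log2 fold 2.07, limma adjusted p = 0.131). GLRX was called only without lesion replicate 2 (adjusted p = 0.0421, with a range of 0.0421 to 0.404 over the alternatives). TXN2, the mitochondrial thioredoxin, had the lowest, at a log2 fold of -0.55 (limma adjusted p = 0.508). Of 17 genes listed for the NFE2L2 pathway and glutathione synthesis 14 were matched and tested, and HMOX1, SLC7A11 and FTH1 were not analysed. Among the 14 tested, 0 were called by limma and 0 had an unadjusted p under 0.05, with a median log2 fold of 0.06. BACH1, the repressor of this pathway, had 38, 130 and 131 counts in lesion pools, against 1, 75 and 72 in lesion-free pools (log2 fold 2.32, SE 1.10, limma adjusted p = 0.479). Without lesion-free replicate 4 its log2 fold was 0.42 (adjusted p = 0.831), within a range of 0.402 to 0.831 for the adjusted p over the alternatives. GSS, glutathione synthetase, had the lowest, at -0.13 (limma adjusted p = 0.919).

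Of 10 tested genes for other oxidant-producing enzymes 0 were called by limma, 3 had an unadjusted p under 0.05 (10.6% over all genes tested), and the median log2 fold was 0.47. The pair with the highest and the lowest log2 fold were both nitric oxide synthases. NOS2, the inducible form, had 21, 25 and 14 counts in lesion pools, against 0, 0 and 10 in lesion-free pools (limma adjusted p = 0.491). NOS1, the neuronal form, had 0, 1 and 0 counts in lesion pools, against 22, 18 and 18 in lesion-free pools. Summed over the pools of each group and scaled to library size, the lesion to lesion-free ratio of NOS1 counts was 0.0173 (exact 95% interval from counting error only, 0.000431 to 0.1003). NOS1 was not called (log2 fold -4.68, SE 1.73, limma adjusted p = 0.319) except without the filter on low counts (adjusted p = 0.0495, with a range up to 0.645 over the alternatives). Myeloperoxidase (MPO) and its eosinophil relative EPX were at 0 in each pool.

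**Figure D4:**
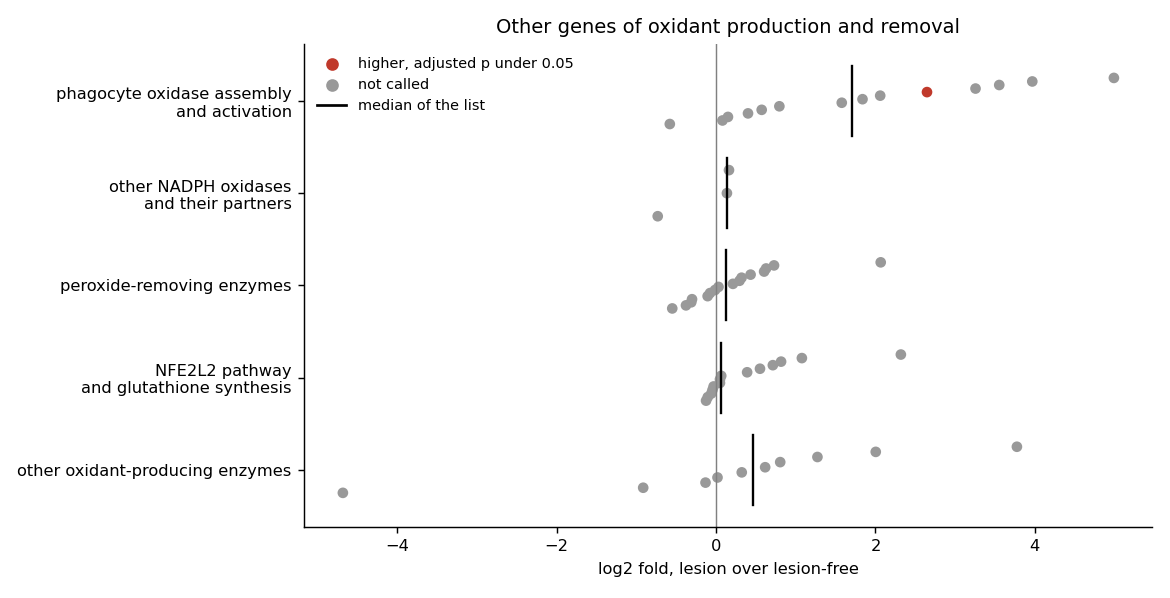
Log2 fold of lesion over lesion-free aorta (x axis) for tested genes of 5 lists on oxidant production and removal; each point is 1 gene, red where the adjusted p is under 0.05, and black bars are list medians. The phagocyte oxidase list is centred at 1.71, whereas the medians of the other lists lie between 0.06 and 0.47; the point of the bottom list at -4.68 is NOS1.

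Isoform counts of the members split unevenly between pools, in ways that the gene totals do not show. In lesion replicate 1, 98.8% of 492 CYBB counts were assigned to isoform CYBB-001 and 1.22% to CYBB-201. In lesion replicate 2 every CYBB count went to CYBB-201 and in lesion replicate 3 99.9% did, and CYBB-001 held 0 counts in each of the other 5 pools. In lesion-free replicates 4, 5 and 6 CYBB-201 held 54.3%, 64.4% and 92.1%, and CYBB-003 held 45.7%, 35.6% and 2.63% of 46, 45 and 38 counts. CYBB-201 was therefore not called as an isoform (log2 fold 3.29, SE 3.13, limma adjusted p = 0.789), except without lesion replicate 1 (log2 fold 4.73, adjusted p = 0.0149), and without any other 1 pool its adjusted p was 0.709 to 0.912. The tables hold no measure of how firmly reads were assigned to isoforms, and whether the split is one of transcripts or of assignment was not tested.

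NCF4 counts also moved between isoforms within groups. NCF4-201 held 11.1%, 75.6% and 49.0% in lesion pools, against 72.6%, 31.2% and 72.0% in lesion-free pools, and NCF4-002 held the rest. For NOX4, NOX4-201 held at least 79.6% in lesion pools and at least 76.3% in lesion-free pools. NOX4-001 had no count in lesion replicate 1 and lesion-free replicate 4. SOD2-001 held at least 86.0% of SOD2 counts in lesion pools and at least 81.1% in lesion-free pools. The 12 isoforms tested include that of the other entry named NCF1-201. Of the 12, 0 were called by limma and 0 had an unadjusted p under 0.05 (8.8% of all isoforms tested). Of 12666 isoforms tested 0.418% were higher and 0.0316% lower in lesion pools. SOD1, SOD3 and CAT are listed with 1 isoform each, so their gene and isoform values are the same counts.

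**Figure D5:**
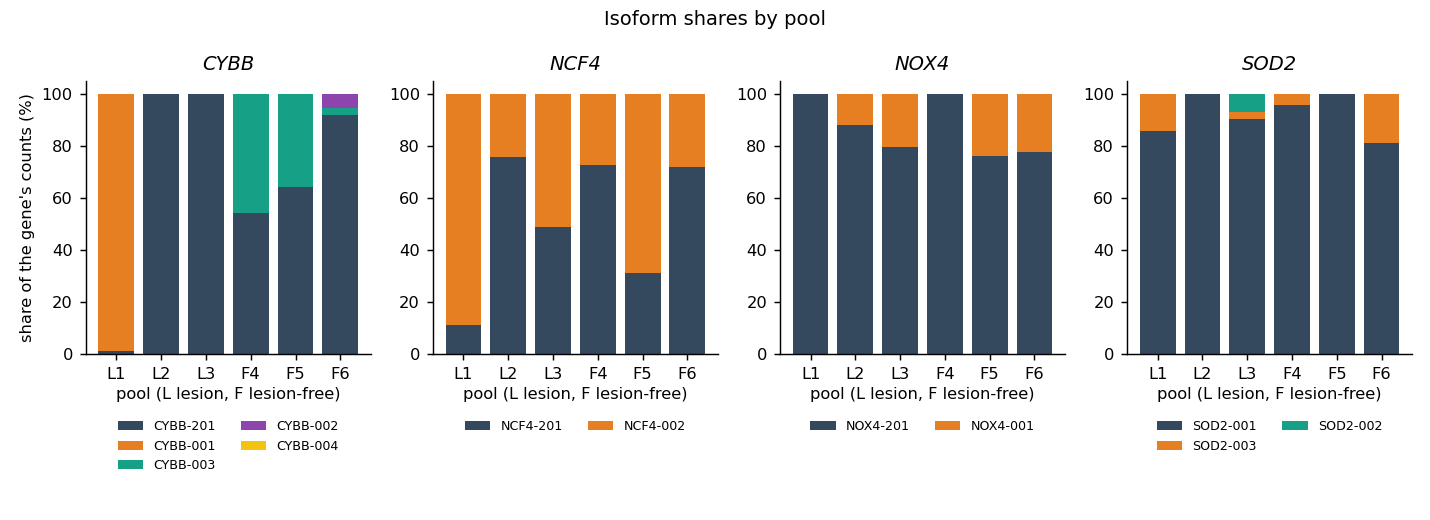
Share of each gene's counts (%, y axis) assigned to its isoforms in lesion pools (L1 to L3) and lesion-free pools (F4 to F6), for CYBB, NCF4, NOX4 and SOD2; isoforms with no count are left out. CYBB-001 holds 98.8% in lesion replicate 1 and nothing in the other 5 pools, and CYBB-003 appears in lesion-free pools.

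Genes with the pattern most like that of CYBB were sought by the root mean square difference of log2 CPM over the 6 pools, after subtracting each gene's own mean. The closest 5 were LCP1 (0.20), C3 (0.24), OLR1 (0.25), EVI2A (0.29) and MYO1F (0.32). EVI2A was not called (limma adjusted p = 0.152). LCP1, C3, OLR1 and MYO1F were called higher, OLR1 near the threshold (limma adjusted p = 0.0479). OLR1, a receptor for oxidised low-density lipoprotein, stood at 32.1, 21.1 and 39.7 CPM in lesion pools, against 1.08, 1.80 and 1.12 CPM in lesion-free pools. MYO1F, a leukocyte myosin, stood at 45.2, 50.5 and 59.3 CPM in lesion pools, against 4.85, 3.47 and 2.84 CPM in lesion-free pools. By the same measure NCF4 was 1.60 and NOX4 1.94 from CYBB. The 5 genes closest to NOX4 were CLINT1 (0.054), COG6 (0.069), EIF4G2 (0.071), ADAM23 (0.080) and GPHN (0.083), none of them called. Like NOX4 they were lowest in lesion-free replicate 4, as in EIF4G2, a translation factor, at 1147, 957 and 1109 CPM in lesion pools against 632, 993 and 1003 CPM in lesion-free pools. Both sets were picked for their likeness and carry no test of it.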

How the data were processed

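RNA pools were sequenced from a stranded total RNA library, per the labels' protocols. The authors deposited raw estimated read counts per gene and per isoform, and RSEM 1.3.0 and edgeR are named, without a role, in the submitters' processing notes. The aligner is not given in the sources used here, nor is the genome build. Values of 1000 and more carried commas, which were removed. Since this kept the columns from being recorded as counts, limma 3.58.1 (R 4.3.3) was used, with voom weights and robust empirical Bayes, on log2 CPM after scaling by the trimmed mean of M values. Genes needed 15 counts in all and, in at least 3 pools, 1.00 CPM, the equivalent of 10 counts at the median depth. Voom added 0.5 to each count. Pools of 1 group differed beyond sampling noise (chi-square per degree of freedom 22.7 to 97.7).

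Members and gene lists were chosen with earlier results of these data known. Named genes were the members, called genes of 5 lists, each list's highest and lowest uncalled log2 fold, and the 5 genes nearest to CYBB and NOX4. List genes were matched by symbol, otherwise by identifier in a table of names. Where an entry's symbol was carried by more than 1 gene, that with more counts was used. Values of 1 list gene are not reported here. A planned ratio with CYBA, and a planned motif search, were not run. On simulated data for the gene comparison (11673 genes), 94% of genes changed by a log2 fold of 2 were recovered, and 11 unchanged genes were called. The simulation gave every gene the same spread between pools, which was not taken from these data. It therefore does not give the share of such changes that could be detected in the real pools.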

Additional observations from a re-analysis of the deposited data

How the results depend on the processing

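CYBB was called under each of 14 alternatives (log2 folds from 4.09 to 4.41, adjusted p up to 0.00384). NCF4, NOX4, SOD1, SOD2 and SOD3 kept their direction and stayed uncalled under each, with the lowest adjusted p at 0.0940 for NCF4. NCF1 had a log2 fold of -0.18 with limma-trend at a prior count of 0.5, -0.024 with both NCF1-named entries summed (chosen after seeing the data), and -0.997 to 2.19 when leaving out 1 pool; the stricter filter removed it. CAT was 0.14 with libraries scaled by total counts alone (0.14 also for its isoform CAT-201), 0.034 with the stricter filter, and -0.16 to 0.20 (isoform -0.16 to 0.20) when leaving out 1 pool. Scaling by total counts shifted the median of all genes by 0.17, and relative to that shift CAT was -0.03. Called genes numbered 113 higher and 9 lower, against 171 and 17 without a filter, 213 and 40 with sample quality weights, and 54 to 150 and 3 to 36 when leaving out 1 pool. Of the oxidase assembly list, 2 genes were higher with scaling by total counts alone, without the filter and with limma-trend at either prior count, 3 with sample quality weights, and 0 to 2 when leaving out 1 pool. Without the filter 1 other oxidant-producing gene was lower, and 0 to 1 peroxide-removing genes were higher when leaving out 1 pool. Leaving out 1 pool, 0 to 1 member isoforms were called. The log2 fold then ran from -1.04 to 2.19 for NCF1-201 of the NCF1 entry, -1.64 to 2.36 for NOX4-001 and -2.53 to 1.34 for SOD2-003. The change in log2 ratio then ran from -0.47 to 0.11 for SOD3 to SOD1, from -0.11 to 0.42 for CAT to SOD1, from 0.32 to 1.03 for SOD2 to SOD1 and from -5.74 to -2.02 for NCF1 to CYBB. The cause of these moves was not tested. No paired analysis was possible because the labels pair no lesion pool with a lesion-free pool. The low depth of lesion replicate 1 and the few NCF1, NOS1 and NOS2 counts limit what could be detected.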
